A study of Homo sapiens with 30 samples.

Results

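The genes described here are 36 listed genes of the cellular response to low oxygen and of glycolysis, read in 10 lines of the human myeloma line KMS11 that differ in the histone methyltransferase NSD2. Each gene was read on its brightest probe set, judged by the mean of the 30 arrays and not by behaviour between lines. A probe set of its own was found for 35 of the 36 listed genes, out of 19775 genes named by a single symbol, and CA9 was not analysed here. The 35 genes fall into 3 subunits of the hypoxia-inducible factors (HIF), 2 oxygen sensors, 2 collagen prolyl hydroxylases, 2 glucose transporters, 16 glycolysis enzymes, 3 regulators of glycolysis and 7 other HIF targets.

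KMS11 is an established human line of multiple myeloma, a plasma cell cancer, in which a translocation places NSD2 (MMSET) under a strong immunoglobulin enhancer. RNA from 3 separate cultures of each of the 10 lines was hybridised to Affymetrix U133 Plus 2.0 arrays, and the values are log2 RMA values as deposited, so that a difference of 1 is a 2-fold change. PAR denotes parental KMS11, and TKO is labelled as its NSD2 knockout. The other 8 lines are knockout cells that had received a transgene. WT carried full-length NSD2, CDM a catalytic dead mutant of it, and H762Y the whole protein with 1 residue substituted in a PHD finger, a zinc-binding module that reads chromatin. The 526-1240 and 526-1365 lines carried fragments named by their first and last residue, both without the N-terminal part. MMSET1 carried MMSET I, a shorter isoform without the SET domain that holds catalysis. It was combined with the WT protein in WT+MMSET1 and with the dead mutant in CDM+MMSET1. The labels give no catalytic activity for the fragments or for H762Y. There was no line with an empty vector, each transgene was read in a single line, and the labels do not say whether a line was 1 clone, so a transgene and its line cannot be told apart. The comparisons ask what the loss of NSD2, its return, its catalytic activity and its separate parts did to gene expression.

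HIF is a pair of proteins. The alpha subunit, HIF-1 alpha (HIF1A) or HIF-2 alpha (EPAS1), is hydroxylated on prolines by the EGLN enzymes when oxygen is present, is then bound by the VHL ubiquitin ligase and degraded, and when oxygen is short it accumulates, joins ARNT and binds a short core sequence in the regulatory DNA of its targets. Those targets include most enzymes of glycolysis, the glucose transporters, the angiogenic growth factor VEGFA, the mitophagy receptors BNIP3 and BNIP3L, and the P4HA subunits that hydroxylate prolines in collagen. Because HIF alpha is set mainly through protein stability, RNA levels of the subunits do not measure HIF activity. How much oxygen the cultures received is not stated.

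Values of the lines below are the mean ± SD of 3 arrays, and so few arrays limit the precision. Arrays of 2 lines that do not overlap are common with 3 arrays each: 25.1% of all genes lay apart and lower in WT against TKO. For other comparisons and directions this share is not given, so non-overlap is a description there. The median of an array was at least 4.986 and at most 5.039, and a mean under the overall median of 5.013 is termed dim: differences there are differences of array values and not measured changes of RNA. Of 12 plasma cell and myeloma markers, 9 were above that median in all 10 lines and the mean log2 value of the list lay between 8.95 and 9.07, while SLAMF7 and CD27 were dim in every line. Of the marker lists of other cell types, CD14, CSF1R and LYZ of monocytes were dim in every line, 1 of 5 T cell markers and 2 of 6 fibroblast markers were above the median in all lines, and so were EPCAM and KRT8 of epithelium and HBB and ALAS2 of red cells. The epithelial list ranged from 5.09 to 5.82 between lines and the erythroid list from 6.02 to 6.70, and their part in the results was not tested. NSD2 itself still gave signal in TKO on all of its 6 probe sets, with array values between 7.342 and 10.293. The brightest set had means of 10.61 in PAR, 10.18 in TKO and 10.40 in WT. Another set read 7.98, 8.20 and 8.16 in that order, and the remaining sets were lower in TKO than in PAR. The NSD2 state of each line is therefore taken from its label. One array stood apart: H762Y replicate 1 correlated at most at 0.9614 with its own line and at 0.9805 with WT+MMSET1 replicate 1, so results on H762Y are given with and without it. In all, 15 of the 30 arrays correlated best with an array of another line.

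The promoters are shown because HIF acts through a short element in them. The core of the hypoxia response element is ACGTG or GCGTG, or CACGT or CACGC when read on the other strand, and it was searched in the 250 bases before each start site in RefSeq (GRCh38.p14), with overlapping matches counted separately. The table held 56 promoters of 32 of the 36 listed genes, and BNIP3L, NDRG1, VEGFA and SLC2A3 were among those without an entry. At least 1 core stood in 33 of these promoters (58.9%), against 43.2% of all 35116 promoters in the table, and 26 genes had a core in at least 1 promoter. The 5 sequences shown belong to genes on which the results turn: 3 glycolysis enzymes that were lower in lines with a transgene, and EPAS1 and P4HA2, whose PAR arrays stood farthest above those of TKO among the members. Each is the 250 bases before the start site, written 5′ to 3′ in the direction of the gene, with the cores in capitals.
ALDOC: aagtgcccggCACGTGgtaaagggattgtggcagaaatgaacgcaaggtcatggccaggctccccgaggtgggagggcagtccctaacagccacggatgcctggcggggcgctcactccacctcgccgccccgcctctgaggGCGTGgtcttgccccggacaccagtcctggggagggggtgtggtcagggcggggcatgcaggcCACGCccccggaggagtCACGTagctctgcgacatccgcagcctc
ENO2: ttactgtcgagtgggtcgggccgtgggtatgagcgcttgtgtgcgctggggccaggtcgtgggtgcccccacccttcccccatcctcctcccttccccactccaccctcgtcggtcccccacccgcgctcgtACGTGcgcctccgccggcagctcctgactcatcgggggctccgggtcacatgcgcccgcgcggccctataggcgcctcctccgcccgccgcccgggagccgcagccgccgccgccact
PKM: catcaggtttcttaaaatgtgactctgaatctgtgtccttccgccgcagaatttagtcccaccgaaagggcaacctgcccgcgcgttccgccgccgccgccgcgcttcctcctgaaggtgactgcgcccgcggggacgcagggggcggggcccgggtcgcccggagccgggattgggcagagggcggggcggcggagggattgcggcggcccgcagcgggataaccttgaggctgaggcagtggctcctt
EPAS1: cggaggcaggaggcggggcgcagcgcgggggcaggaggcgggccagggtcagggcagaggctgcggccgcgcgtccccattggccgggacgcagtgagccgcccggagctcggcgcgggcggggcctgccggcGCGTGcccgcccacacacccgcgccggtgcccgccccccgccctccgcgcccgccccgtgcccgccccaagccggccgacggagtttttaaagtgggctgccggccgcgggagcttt
P4HA2: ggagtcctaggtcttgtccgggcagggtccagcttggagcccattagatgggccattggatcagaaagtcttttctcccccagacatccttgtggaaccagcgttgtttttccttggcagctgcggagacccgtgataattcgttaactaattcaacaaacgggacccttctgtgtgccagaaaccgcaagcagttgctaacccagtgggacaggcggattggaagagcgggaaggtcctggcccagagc
The ALDOC window (chr17:28576896-28577145, minus strand) held 5 core matches, among them a palindrome that counts on both strands. ENO2 (chr12:6914330-6914579, plus strand) and EPAS1 (chr2:46297157-46297406, plus strand) held 1 each. PKM (chr15:72231191-72231440, minus strand) and P4HA2 (chr5:132227092-132227341, minus strand) held none in this window, which says nothing about sites elsewhere. Thus ENO2 and ALDOC, with a core, and PKM, without one, are among the enzymes with the largest differences described below.

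Across the 10 lines, the members moved in different directions rather than together. EPAS1 and VEGFA had lower means in TKO and the lines with catalytic dead, short or PHD-mutant NSD2 than in the other 5 lines, and the glycolysis enzymes averaged highest in PAR and TKO, the 2 lines without a transgene. In PAR against TKO, 6 of the 34 members tested were higher and 3 lower at an adjusted p under 0.05, beside 22.3% of all 13137 genes tested, 12.2% higher and 10.1% lower (5 members without TKO replicate 1). Equal replicate numbers paired the arrays here, and with the block 9 were higher and 1 lower, beside 19.3% of all genes: P4HA1, VEGFA and PDK1 were gained and PFKL and ARNT lost. In WT against TKO, 7 were higher and 10 lower (50% of the members), beside 40.8% of all genes, 21.5% higher and 19.3% lower. For WT against PAR the count was 6 higher and 11 lower, beside 30.6%, 15.7% higher and 14.9% lower. Without PAR replicate 3, 10 members and 2849 genes passed. Median differences were near 0 for members and for all genes alike in PAR against TKO (0.01 and -0.03) and in WT against TKO (-0.03 and 0.00), with members on both sides of 0. In WT against PAR the median was -0.225 for members and 0.01 for all genes. The median size of a difference, whatever its sign, was 0.41 for members and 0.26 for all genes in WT against TKO. SLC2A3, a neuronal type glucose transporter, was dim in all 10 lines (line means 4.31 to 4.63) and was not tested, so it enters none of these counts. P4HA2 and EPAS1 passed the filter on low values through few lines: 6 and 15 of the 30 arrays were above the median, all of them in lines where the gene was high, so that a difference was bound to follow for these genes.

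**Figure D1:**
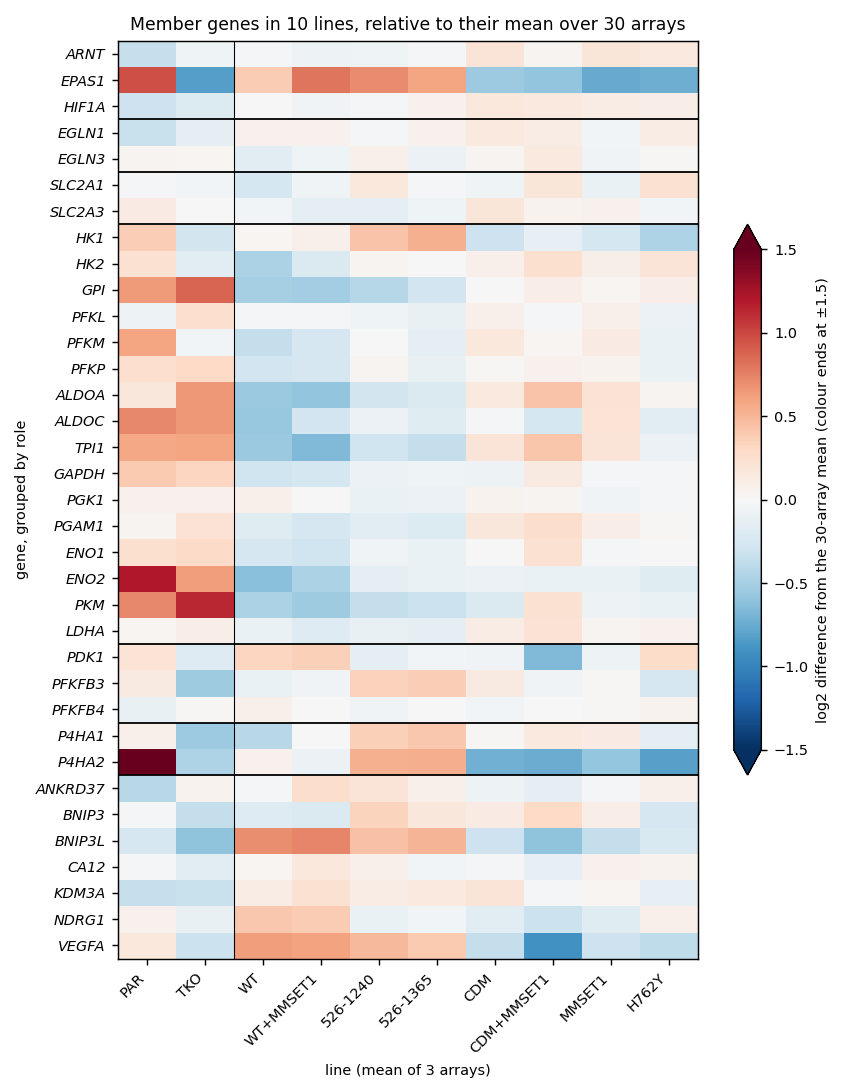
Difference of each line's mean (3 arrays) from the mean over all 30 arrays on the log2 scale for 35 genes (rows, grouped by role) in 10 lines (columns; the first 2 carry no transgene), red for higher and blue for lower. GPI, TPI1, ALDOC, ENO2 and PKM are red in PAR and TKO and blue in WT, WT+MMSET1 and both fragment lines. In CDM, CDM+MMSET1, MMSET1 and H762Y only ENO2 of these is blue throughout. There GPI is at or above its mean, and TPI1 is red in all but H762Y. EPAS1, VEGFA and BNIP3L are blue in TKO, CDM, CDM+MMSET1, MMSET1 and H762Y. BNIP3L is blue in PAR too (9.53, against a mean of 9.79 over all arrays).

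EPAS1, which encodes HIF-2 alpha, was the HIF subunit whose level differed most between the lines. Its arrays read 6.07, 6.05 and 5.97 in PAR and 4.33, 4.07 and 4.33 in TKO. In WT they read 5.24, 5.32 and 5.78, and in CDM 4.39, 4.49 and 4.67. The groups did not overlap in either pair, and TKO and CDM were dim. EPAS1 passed the filter on low values only through lines where it was high, so a difference was bound to follow. The tests below are therefore a description of array values. EPAS1 was higher in PAR than in TKO by 1.79 (SE 0.203, adjusted p = 2.50e-07), in WT than in TKO by 1.20 (adjusted p = 6.64e-05) and in WT than in CDM by 0.93 (adjusted p = 0.00253). WT+MMSET1 (5.87 ± 0.494), 526-1240 (5.78 ± 0.209) and 526-1365 (5.66 ± 0.477) stood at the level of PAR and WT. CDM+MMSET1 (4.47 ± 0.179), MMSET1 (4.31 ± 0.047) and H762Y (4.34 ± 0.064) stayed near TKO (4.24 ± 0.150). Both fragments exceeded TKO, by 1.53 and 1.41 (adjusted p = 2.75e-06 and 8.12e-06), while the intervals for CDM (-0.14 to 0.69), MMSET1 (-0.35 to 0.48) and H762Y (-0.33 to 0.51) against TKO included 0. WT remained 0.59 below PAR (adjusted p = 0.0305), a call lost when any PAR array, WT replicate 1 or WT replicate 2 was left out. The 2 other EPAS1 probe sets were dim, with means of 3.56 and 2.71, and read differences of 0.06 and 0.02 in PAR against TKO, so the result rests on 1 probe set.

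The partner subunits moved little. HIF1A, which encodes HIF-1 alpha, ranged only from 9.86 ± 0.028 in PAR to 10.33 ± 0.111 in CDM. Against TKO (9.96 ± 0.110) it was higher in CDM by 0.37, in MMSET1 by 0.32, in H762Y by 0.31, in 526-1365 by 0.27 and in WT by 0.21 (adjusted p = 0.00279, 0.00772, 0.011, 0.0115 and 0.042). These lines carry different transgenes, CDM among them, and PAR against TKO showed -0.10 without passing. The WT call was lost in 9 of 13 other settings, among them leaving out TKO replicate 1 or 2 or WT replicate 1 or 2. The other calls but that of CDM were lost without TKO replicate 1, and that of 526-1365 also without its own replicate 1. ARNT, the common beta subunit, was lowest in PAR at 8.69 ± 0.110 and differed from TKO by -0.29 (adjusted p = 0.032). That call was lost on blocking by replicate number (adjusted p = 0.0893) and without 5 of the 6 arrays in turn. EGLN1, the main oxygen sensor, ranged from 9.20 ± 0.157 in PAR to 9.69 ± 0.105 in CDM and was higher in WT than in PAR by 0.40 (adjusted p = 0.00339) and in CDM than in TKO by 0.30 (adjusted p = 0.0385; lost without TKO replicate 1 or 2 or CDM replicate 2 or 3). EGLN3, a sensor that HIF itself induces in many cells, was dim in 9 of the 10 lines and passed in no comparison.

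P4HA2, a catalytic subunit of the enzyme that hydroxylates collagen prolines, was dim in 7 of the 10 lines and reached its highest line mean, 6.80, in PAR. Its arrays read 6.38, 6.89 and 7.12 in PAR and 4.10, 4.34 and 3.76 in TKO. WT arrays read 4.70, 4.59 and 4.49, CDM arrays 3.93, 3.64 and 3.87. PAR thus stood clear of every other line, and only the fragment lines held further arrays above the median. The difference of PAR from TKO was 2.73 (SE 0.247, adjusted p = 5.86e-09), read against a dim line, that of WT from TKO 0.53 (adjusted p = 0.0919), and WT stayed 2.20 below PAR (adjusted p = 6.44e-07). Between dim lines, WT exceeded CDM by 0.78 (adjusted p = 0.0269) and WT+MMSET1 exceeded CDM+MMSET1 by 0.66 (adjusted p = 0.0454). The first of these calls was lost without WT replicate 1 or 3 or CDM replicate 2 or 3, and the second without any 1 of its 6 arrays. The fragment lines 526-1240 (5.06 ± 0.500) and 526-1365 (5.08 ± 0.672) exceeded TKO by 0.99 and 1.02 (adjusted p = 0.00273 and 0.00234). A second, dim P4HA2 probe set was also higher in PAR than in TKO, by 0.64, while the remaining set read -0.05.

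P4HA1, the partner isoform, behaved differently. It was lowest in TKO at 8.08 ± 0.197 and highest in 526-1365 at 9.03 ± 0.192. Both fragments exceeded TKO, by 0.91 and 0.94 (adjusted p = 0.005 and 0.00359). In PAR it read 8.70 ± 0.382, a difference from TKO of 0.62 that passed on blocking by replicate number (adjusted p = 0.013) and not without it. WT read 8.21 ± 0.692, the largest spread of P4HA1 in any line, with arrays at 7.56, 8.94 and 8.13.

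VEGFA, BNIP3L and NDRG1 were high in the lines with a WT transgene. VEGFA, the growth factor that drives vessel growth, read 11.26, 10.94 and 11.20 in WT, 10.49, 10.34 and 9.75 in TKO and 10.41, 10.02 and 10.03 in CDM. BNIP3L, a receptor that marks mitochondria for removal, read 10.63, 10.52 and 10.30 in WT, 9.31, 9.27 and 8.97 in TKO and 9.55, 9.57 and 9.30 in CDM. For both genes every WT array lay above every TKO and CDM array, without a share of all genes beside it. VEGFA was higher in WT than in TKO by 0.94 (SE 0.290, adjusted p = 0.0123) and than in CDM by 0.98 (adjusted p = 0.019). BNIP3L was higher by 1.30 (SE 0.310, adjusted p = 0.00193) and 1.01 (adjusted p = 0.0233). With MMSET I present in both lines, the differences were 1.52 for VEGFA (adjusted p = 0.000554) and 1.34 for BNIP3L (adjusted p = 0.00274). In PAR, VEGFA read 11.13, 10.62 and 10.28, overlapping both WT and TKO. VEGFA in WT against PAR was 0.46 (interval -0.14 to 1.06, adjusted p = 0.239) and did not pass. BNIP3L read 9.90, 9.51 and 9.19 in PAR, overlapping TKO and below every WT array. BNIP3L was 0.95 higher in WT than in PAR (adjusted p = 0.0227), a call lost without PAR replicate 2 or 3 or WT replicate 1 or 2. VEGFA in PAR against TKO was 0.48, with an adjusted p of 0.262 that became 0.0288 with the replicate number as a block.

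**Figure D2:**
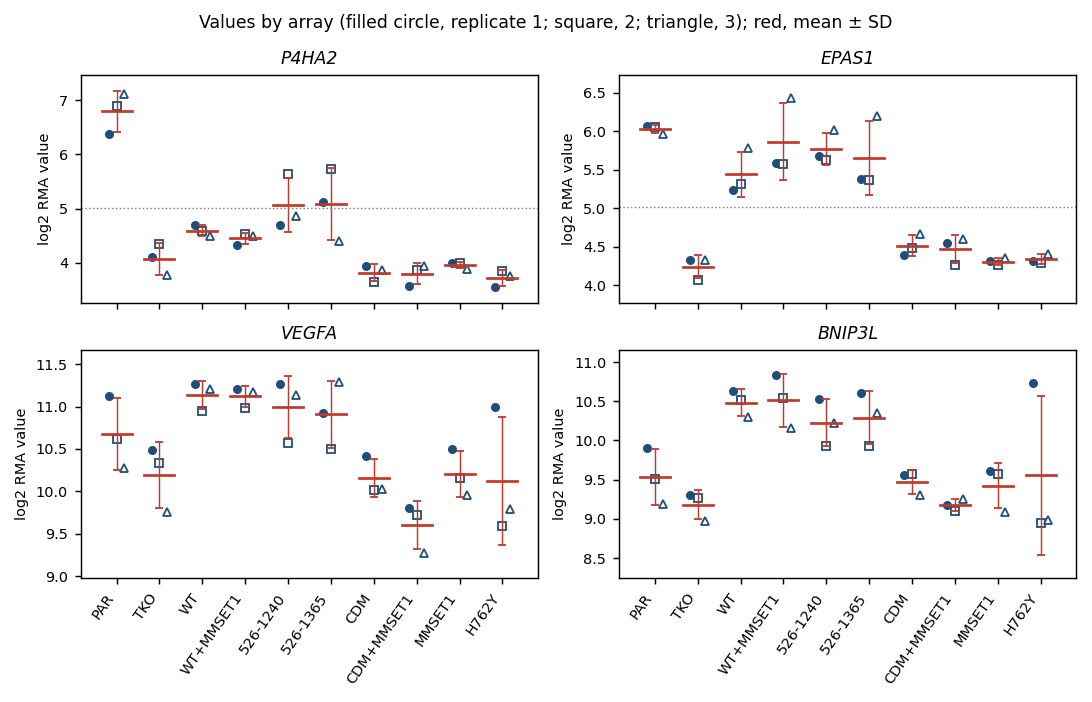
Log2 RMA values of P4HA2, EPAS1, VEGFA and BNIP3L (one panel each) on every array of the 10 lines, with the mean ± SD of 3 arrays in red and the median of all values (5.013) as a dotted line. EPAS1 lies above that line for PAR, for WT with and without MMSET I and for the fragments, and below it in the other 5, P4HA2 is highest in PAR, and H762Y replicate 1 (filled circle) is high for VEGFA and BNIP3L.

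Probe sets of these genes did not all agree. The VEGFA set used was the brightest, and the 3 others read -0.02, -0.28 and -0.11 in WT against TKO; averaged over its probe sets, VEGFA differed by 0.13 and did not pass. In WT+MMSET1 against CDM+MMSET1 the same 3 sets read 0.88, 0.82 and 0.82, and 2 of them passed. The second BNIP3L set read 0.60 in WT against TKO without passing and 1.05 in WT+MMSET1 against CDM+MMSET1, where it passed. VEGFA in WT against TKO was also lost without TKO replicate 3. The VEGFA call in WT against CDM was lost without WT replicate 1 or 3 or CDM replicate 2 or 3, and that of BNIP3L without WT replicate 1 or CDM replicate 3.

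NDRG1, a stress-responsive gene, read 10.73, 10.73 and 10.83 in WT, 10.22, 10.37 and 9.95 in CDM and 10.50, 10.20 and 10.03 in TKO, and the WT arrays lay above all of these. It was higher in WT than in CDM by 0.58 (adjusted p = 0.0424) and in WT+MMSET1 than in CDM+MMSET1 by 0.70 (adjusted p = 0.0113). In WT against TKO it was 0.52 (adjusted p = 0.0446), lost without any 1 WT array or TKO replicate 2 or 3, and the call against CDM was lost without any 1 WT array or CDM replicate 1 or 3. Unlike VEGFA and BNIP3L, NDRG1 stood near TKO in the fragment lines, at 10.26 ± 0.118 and 10.32 ± 0.105. The remaining HIF targets were less ordered. BNIP3, the relative of BNIP3L, was lowest in TKO at 7.55 ± 0.535 and was higher in 526-1240 by 0.69 and in 526-1365 by 0.53 (adjusted p = 0.0108 and 0.0473), calls lost without TKO replicate 1 or replicate 2 of the fragment line, and the second also without TKO replicate 2 or 526-1365 replicate 3. KDM3A, a histone demethylase induced by HIF, read 9.62 ± 0.045 in PAR and 9.63 ± 0.158 in TKO and was higher than in TKO by 0.44 in WT, 0.53 in CDM, 0.44 in 526-1240 and 0.47 in 526-1365 (adjusted p = 0.0399, 0.0324, 0.0418 and 0.0309). Averaged over its 2 probe sets, none of these KDM3A calls passed, and each was lost on leaving out at least 3 of the arrays in turn, TKO replicate 3 among them in all 4. ANKRD37 was lower in PAR than in TKO by -0.48 (adjusted p = 0.00574) and higher in WT+MMSET1 than in CDM+MMSET1 by 0.40 (adjusted p = 0.0154), so its direction differed between these comparisons, and the second call was lost without WT+MMSET1 replicate 1. CA12, a carbonic anhydrase at the cell surface, ranged only from 5.22 to 5.54 and was 0.28 higher in WT+MMSET1 than in CDM+MMSET1 (adjusted p = 0.0242), a call kept only without CDM+MMSET1 replicate 2 among the fits that left out 1 array.

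Of the comparisons, 3 shared no arrays and set NSD2 with activity against the line labelled as knockout or against inactive NSD2. They were PAR against TKO, WT against CDM and WT+MMSET1 against CDM+MMSET1. P4HA2 and EPAS1 were called higher in all 3 (2 of 34 members, beside 5.38% of all genes), P4HA2 between dim lines in the last pair of comparisons, and 0 members were lower in all 3 (2.63% of all genes). EPAS1 was dim in TKO, CDM and CDM+MMSET1. Both genes passed the filter on low values through lines where they were high, so that a difference was bound to follow. Their calls are a description and not support for a shared direction. With the replicate block in PAR against TKO, VEGFA also passed in all 3 (0.48 there, adjusted p = 0.0288). The same direction in at least 2 of them was seen for P4HA2, EPAS1, VEGFA, BNIP3L and NDRG1, which is 5 of 34 members beside 22.3% of all genes, so by count the members were not richer in such genes than the array. In WT against CDM, 5 members were higher and 1 was lower (23.4% of all genes passed, 12.4% higher and 11% lower). In WT+MMSET1 against CDM+MMSET1, 8 were higher and 6 lower (32.1% of all genes, 16.1% higher and 16% lower). The test of whether the activity difference itself depended on MMSET I passed for 0 of 34 members and 0% of genes; 1 member and 492 genes had an unadjusted p under 0.05. The difference of PAR from TKO was itself unlike that of WT from CDM for 3 of 34 members (P4HA2, ENO2 and PFKM), beside 6.25% of all genes, in a contrast added after the data were seen. Single arrays moved these counts: in WT against CDM 1 member passed without WT replicate 1, 3 without WT replicate 3 or CDM replicate 2, 2 without CDM replicate 3 and 10 without H762Y replicate 1, which enters through the shared spread. With MMSET I, 7 passed without WT+MMSET1 replicate 1 and 9 without CDM+MMSET1 replicate 1. The counts over all genes moved too. In WT against CDM, 1546 genes passed without WT replicate 1 and 4141 without H762Y replicate 1. With MMSET I, 2526 genes passed without WT+MMSET1 replicate 1.

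**Figure D3:**
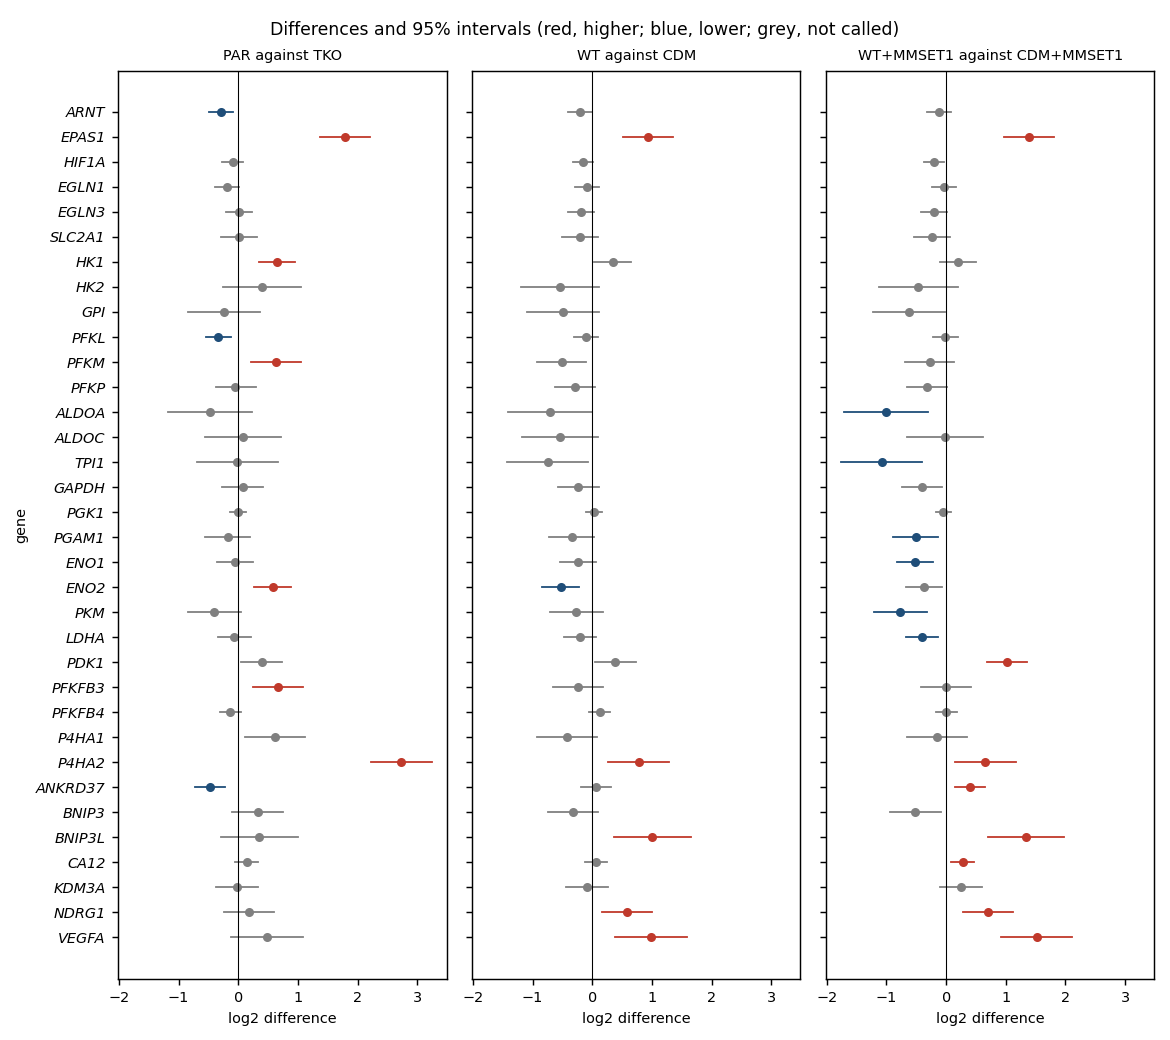
Log2 differences (x axis; points) with 95% intervals (lines) of the 34 members tested in PAR against TKO, WT against CDM and WT+MMSET1 against CDM+MMSET1, red for higher, blue for lower and grey for not passing. EPAS1 and P4HA2 lie right of 0 in all panels, P4HA2 reaches 2.73 in the first, and 6 enzymes are blue in the third.

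The glycolysis enzymes were lower in WT than in TKO: 10 of 16 fell, 0 rose, and the median difference of the 16 was -0.56. Of all genes, 19.3% were lower in that comparison. They span the pathway from GPI, which turns glucose phosphate into fructose phosphate, through the aldolases ALDOA and ALDOC, the isomerase TPI1 and GAPDH, to the enolases ENO1 and ENO2 and pyruvate kinase (PKM). At least 2-fold falls were seen for 6 of them, beside 2.24% of all genes. PKM read 7.03, 7.60 and 7.35 in WT and 8.79, 9.09 and 8.93 in TKO, a difference of -1.61 (SE 0.215, 3.05-fold, adjusted p = 3.99e-06). GPI, at 9.28, 10.22 and 9.72 against 11.03, 11.07 and 11.20, fell by 1.36 (SE 0.292, adjusted p = 0.000783). ENO2, the enolase of neurons and neuroendocrine cells, read 4.88, 5.33 and 5.10 in WT and 6.36, 6.27 and 6.42 in TKO. In none of these 3 did the arrays of the lines overlap, and 25.1% of all genes lay apart in this direction. ENO2 fell by 1.25 (adjusted p = 7.17e-07), ALDOC, with arrays at 6.32, 7.15 and 6.73 against 8.10, 8.01 and 7.74, by 1.22 (adjusted p = 0.00309), ALDOA by 1.21 (adjusted p = 0.00689) and TPI1 by 1.15 (adjusted p = 0.0075). The TPI1 call was lost without WT replicate 1. Smaller falls were those of GAPDH (-0.62), PFKP (-0.58), ENO1 (-0.54) and PFKL (-0.28, lost without TKO replicate 1 or 3 or WT replicate 1 or 3). PGK1, LDHA, PGAM1, HK1, HK2 and PFKM did not pass, and PGK1, an enzyme that forms ATP in the pathway, lay between 13.06 and 13.22 in every line. The second PKM probe set read -0.12 in WT against TKO without passing, so the fall of PKM holds for the set used.

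PAR did not share this fall. WT was lower than PAR in 9 of 16 enzymes and higher in 0, with ENO2 at -1.82, ALDOC at -1.29, PKM at -1.20, GPI and TPI1 each at -1.13, PFKM at -0.95, GAPDH at -0.69, PFKP at -0.54 and ENO1 at -0.49. Of all genes 14.9% were lower there. The TPI1 and ENO1 calls were lost without PAR replicate 3 or WT replicate 1, and that of PFKP without PAR replicate 2 or 3 or WT replicate 2. The arrays of ENO2 in PAR read 6.54, 7.004 and 7.23, all above those of every other line. PAR against TKO differed otherwise: ENO2 was 0.57 higher in PAR (adjusted p = 0.00552), HK1, the constitutive hexokinase, 0.65 higher (adjusted p = 0.0021), PFKM, the muscle type phosphofructokinase, 0.63 higher (adjusted p = 0.0236), and PFKL, the liver type, was -0.33 (adjusted p = 0.0162). HK1 arrays read 7.13, 7.43 and 7.68 in PAR and 6.86, 6.78 and 6.66 in TKO and did not overlap. PFKM arrays read 10.75, 11.48 and 11.62 in PAR and 10.50, 10.62 and 10.84 in TKO, and the lowest PAR array lay within the TKO range. The PFKM call was lost without PAR replicate 2 or 3 or TKO replicate 1 or 2, and that of PFKL with the replicate block (adjusted p = 0.0797). GPI, TPI1, ALDOA and PKM in PAR overlapped TKO, with differences of -0.23, -0.02, -0.47 and -0.41 that did not pass.

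**Figure D4:**
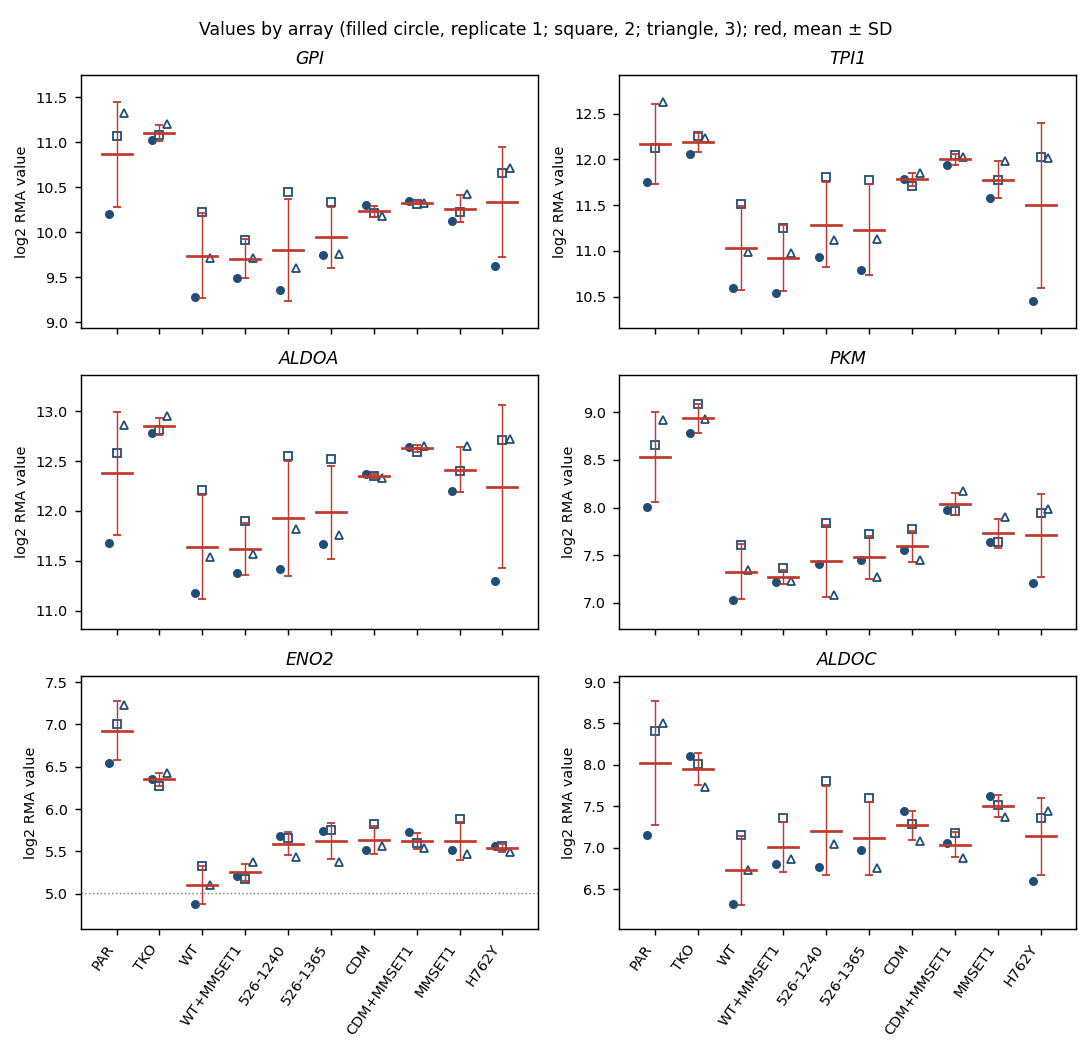
Log2 RMA values of GPI, TPI1, ALDOA, PKM, ENO2 and ALDOC on every array of the 10 lines, with the mean ± SD of 3 arrays in red and, where in range, the median of all values (5.013) dotted. PAR and TKO are highest for PKM, ENO2, GPI and ALDOC, and replicate 1 (filled circle) is the lowest array of PAR and, except for ENO2, of H762Y.

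Part of the difference was shared by CDM, MMSET1 and H762Y. All 8 transgene lines had lower means than TKO for 10 of the 16 enzymes and lower means than PAR for 9, given as a description since the lines share these 2 references. The share of all genes for which this held was not counted, so it is not shown to be particular to the enzymes. PKM was lower than in TKO in CDM by -1.34, in MMSET1 by -1.21 and in H762Y by -1.23 (adjusted p = 0.000138, 0.000409 and 0.000444), and ENO2 by -0.72, -0.73 and -0.81 (adjusted p = 0.00141, 0.00126 and 0.000588). These PKM values are those of the brighter of its 2 probe sets. Across the settings tried, the PKM difference shrank to as little as -0.66 in CDM, -0.47 in MMSET1 and -0.44 in H762Y. The PKM call in H762Y was lost with probe sets averaged and with only the compared lines, with or without the block. GPI fell in CDM by 0.87 (adjusted p = 0.0419) and in MMSET1 by 0.84 (adjusted p = 0.0497), calls lost without any 1 of the 6 arrays. By count, 4 members were higher and 3 lower in CDM against TKO (17.2% of all genes, 9.99% higher and 7.18% lower). The count was 1 and 3 in MMSET1 against TKO (16.9%, 9.29% and 7.6%) and 1 and 3 in H762Y against TKO (15.8%, 8.5% and 7.26%). Without TKO replicate 1 these totals were 3, 2 and 2, and without H762Y replicate 1 they were 7 in each. The CDM total was also 3 without TKO replicate 2 or CDM replicate 2 and 4 without CDM replicate 3. Genes passing moved as well, in the order CDM, MMSET1 and H762Y. They were 1438, 1434 and 1303 without TKO replicate 1 and 2877, 2767 and 2287 without H762Y replicate 1. Arrays with equal replicate numbers deviated together in the first 2 comparisons, and these were refitted on the compared lines alone with the number as a block. Then 7 members were higher and 9 lower in CDM (31.1% of all genes passed), all 9 of them enzymes, and 3 higher and 8 lower in MMSET1 (25.4%), all 8 of them enzymes. These shares of all genes cover both directions, so the counts of lower enzymes have no share of lower genes beside them. Without the block, fits on the compared lines alone called 14 and 10 members, so most of the added calls came with the restriction to these lines. Those gained in both were P4HA1, which was higher by 0.56 and 0.67, and the lower enzymes ENO1, ALDOA, ALDOC, TPI1 and GAPDH, with ALDOC at -0.68 (adjusted p = 0.00222) in CDM and -0.45 (adjusted p = 0.0123) in MMSET1. ALDOA and TPI1 lay at -0.50 and -0.40 in CDM. Empty vector cells were not analysed here, so a response to carrying any transgene cannot be told apart from one to inactive NSD2.

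With MMSET I in both lines, activity was accompanied by lower enzymes: TPI1 fell by 1.08, ALDOA by 1.01, PKM by 0.77, ENO1 by 0.53, PGAM1 by 0.51 and LDHA by 0.41 (adjusted p = 0.0156, 0.0265, 0.0097, 0.00852, 0.0368 and 0.0217), which is 6 of 16 beside 16% of all genes lower. TPI1 arrays read 10.54, 11.25 and 10.98 in WT+MMSET1 and 11.93, 12.05 and 12.03 in CDM+MMSET1. ALDOA arrays read 11.38, 11.90 and 11.57 against 12.64, 12.59 and 12.65. Neither overlapped, and the spread was far wider in WT+MMSET1. Without MMSET I, ENO2 alone among the enzymes passed in WT against CDM (-0.53, adjusted p = 0.0132; lost without WT replicate 1 or CDM replicate 2), while TPI1 (-0.75, interval -1.43 to -0.07) and ALDOA (-0.71, interval -1.41 to -0.01) did not after adjustment. The TPI1 and ENO1 calls with MMSET I were lost without WT+MMSET1 replicate 1, ALDOA also without replicate 3 or any 1 CDM+MMSET1 array, PGAM1 likewise, and LDHA without WT+MMSET1 replicate 1 or 2 or CDM+MMSET1 replicate 1 or 2.

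The enzymes varied together within lines as well. Averaged over the 16 enzymes, the log2 value was 10.69 ± 0.347 in PAR and 10.65 ± 0.066 in TKO. The values were 9.98 ± 0.230 (WT), 10.002 ± 0.142 (WT+MMSET1), 10.20 ± 0.254 (526-1240) and 10.18 ± 0.231 (526-1365). In CDM it was 10.31 ± 0.015, in CDM+MMSET1 10.42 ± 0.012, in MMSET1 10.34 ± 0.075 and in H762Y 10.24 ± 0.432. The SD over cultures was thus largest in PAR and H762Y and smallest in the catalytic dead lines. A single array set the spread in several lines: PAR replicate 1 was the lowest PAR array in 15 of 16 enzymes and H762Y replicate 1 the lowest of its line in 15. Replicate 2 was the highest array for 15 enzymes of the WT line, for 10 of WT+MMSET1, for 13 of 526-1240 and for all 16 of 526-1365. How often these arrays were lowest or highest over all genes was not counted. The counts are therefore not shown to be particular to the enzymes. Over all genes tested, PAR replicate 1 correlated at most at 0.9828 with its own line, against 0.9925 for PAR replicates 2 and 3. What the cultures of 1 number shared (a day, a density, a scan) is not stated, and the part of it in the results was not tested.

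**Figure D5:**
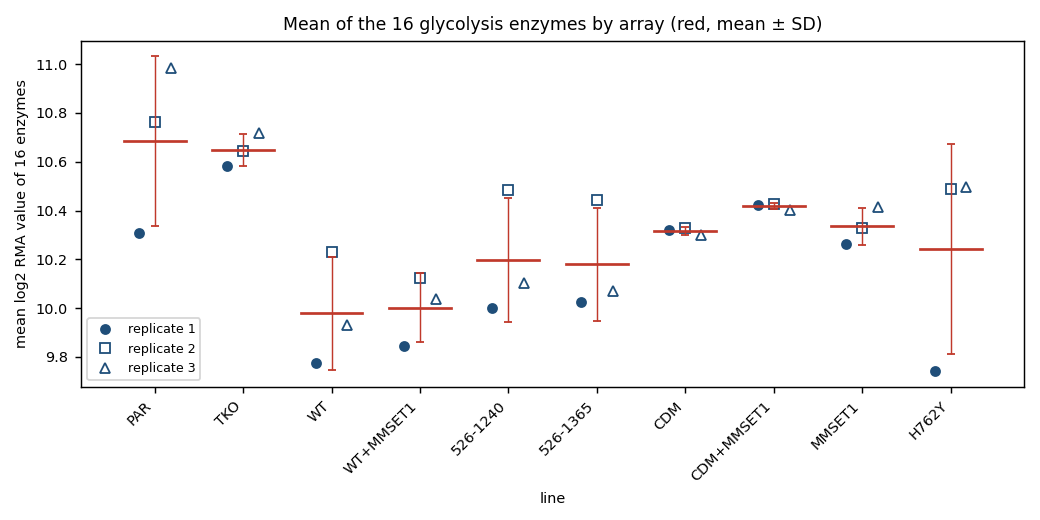
Mean log2 RMA value of the 16 glycolysis enzymes (y axis) on each array of the 10 lines (x axis), with replicate 1 as a filled circle, 2 as a square and 3 as a triangle and the line's mean ± SD in red. WT and WT+MMSET1 are lowest (means 9.98 and 10.002), PAR and TKO highest (10.69 and 10.65), and PAR replicate 1 (10.31) and H762Y replicate 1 (9.74) lie below the other arrays of their lines.

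Among the regulators of glycolysis, PFKFB3 and PDK1 differed and PFKFB4 did not. PFKFB3 makes the compound that stimulates phosphofructokinase. It was lowest in TKO, at 6.67, 6.83 and 7.01, against 6.90, 7.64 and 7.95 in PAR, where 1 array lay within the TKO range. PFKFB3 was higher than in TKO in PAR by 0.66, in CDM by 0.67, in 526-1240 by 0.87 and in 526-1365 by 0.90 (adjusted p = 0.0195, 0.0228, 0.00144 and 0.00121). The PAR call was lost without PAR replicate 2 or 3 or TKO replicate 1 or 2, and the CDM call without TKO replicate 1 or 2 or CDM replicate 2 or 3. PFKFB3 also passed in MMSET1 with the replicate block (0.54, adjusted p = 0.00781). PDK1, which blocks entry of pyruvate into the citric acid cycle, was lowest in CDM+MMSET1 at 9.45 ± 0.251 and highest in WT+MMSET1 at 10.47 ± 0.117, a difference of 1.02 (adjusted p = 9.98e-05). It was 0.52 higher in WT than in TKO (adjusted p = 0.0157; lost without TKO replicate 3 or WT replicate 3) and 0.40 higher in PAR than in TKO with the replicate block only (adjusted p = 0.0387). PFKFB4 lay between 5.26 and 5.46 in all lines and passed in no comparison. Of the glucose transporters, SLC2A1, the main carrier of most cells, lay between 5.88 and 6.38 and passed in H762Y against WT and, without H762Y replicate 1, also in H762Y against TKO (0.48, adjusted p = 0.0137).

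Enzymes were lower in both fragment lines too. In 526-1240 against TKO, 10 members were higher and 6 lower (38.6% of all genes passed, 20.9% higher and 17.7% lower), and in 526-1365 against TKO 9 were higher and 8 lower (37.7%, 20.4% and 17.3%). Without replicate 1 of the fragment line these totals were 10 and 11, with 3828 and 3787 genes passing. The first was 10 without 526-1240 replicate 3 as well. PKM fell by 1.49 and 1.46, GPI by 1.30 and 1.16, TPI1 by 0.90 and 0.95, ALDOA by 0.92 and 0.86, and ENO2 by 0.76 and 0.73. BNIP3L was higher by 1.05 and 1.11 (adjusted p = 0.0101 and 0.0067). HK1 was the enzyme that went the other way: its arrays read 7.27, 7.79 and 7.36 in 526-1240 and 7.60, 7.76 and 7.36 in 526-1365, all above TKO, with differences of 0.70 and 0.81 (adjusted p = 0.000636 and 0.000165). The TPI1 and ALDOA calls of both fragments were lost without replicate 1 or 3 of the fragment line, and also without TKO replicate 2 or 3. In 526-1365 against WT, lines whose transgenes differ by label in the N-terminal part, 0 members passed (1.42% of all genes did). An unadjusted p under 0.05 was found for 7 members, beside 1445 of all 13137 genes tested. The lowest adjusted p of a member was 0.0824, that of ENO2 at 0.52. Without WT replicate 2, 2 members passed, and without H762Y replicate 1, 1 did. HK1, 0.50 higher in the fragment line, passed on blocking by replicate number (adjusted p = 0.0489), arrays with equal numbers deviating together in this comparison. The share of all genes passing with this block is not given.

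H762Y was read against WT, whose transgene differs by label in the PHD finger residue, and the result depended on 1 array. With all arrays, 2 members were higher and 5 lower in H762Y (15.4% of all genes passed, 5.98% higher and 9.41% lower): EPAS1 fell by 1.11 (adjusted p = 0.000528), VEGFA by 1.01, BNIP3L by 0.93, P4HA2 by 0.88 and HK1 by 0.49, and SLC2A1 was 0.49 and ENO2 0.44 higher. Leaving out H762Y replicate 2 or WT replicate 1 ended all of these calls but that of EPAS1, and without H762Y replicate 3 or WT replicate 3 the count was 2 or 4. EPAS1 was equally low on all H762Y arrays, at 4.31, 4.29 and 4.41. BNIP3L read 10.73, 8.95 and 8.99 and VEGFA 10.99, 9.60 and 9.79, so that replicate 1 was as high as WT and the other 2 near TKO. The enzymes were split the same way, with TPI1 at 10.46, 12.02 and 12.01 and ALDOA at 11.30, 12.71 and 12.72. Without replicate 1, 12 members were higher, 11 of them enzymes, and 6 lower, and 39.2% of all genes passed (19.4% higher, 19.8% lower). HK2, the inducible hexokinase, was then 1.18 higher than in WT, ALDOA 1.07, TPI1 0.99 and GPI 0.95 (adjusted p = 0.00134, 0.00938, 0.00783 and 0.0112). BNIP3L fell by 1.51, VEGFA by 1.44, EPAS1 by 1.10, P4HA2 by 0.80 and NDRG1 by 0.74, while HK1 no longer passed (-0.37, adjusted p = 0.0697). Against TKO, H762Y without replicate 1 had 4 members higher and 3 lower (17.4% of all genes), PKM still lower by -0.97 and ENO2 by -0.83. The EPAS1 difference hardly moved, from -1.11 to -1.10, but EPAS1 was dim in H762Y. P4HA2 was dim in both H762Y and WT. Both genes passed the filter on low values through lines where they were high, so their differences are a description of array values.

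Genes of the same pathways outside the set were read from 8 further lists of 156 genes in all. Of 30 other HIF targets tested, 7 were higher and 6 lower in PAR against TKO, 9 and 6 in WT against TKO, 8 and 5 in WT against CDM and 10 and 6 in WT+MMSET1 against CDM+MMSET1. The shares of all genes are those given above for each comparison. The largest differences went both ways. PLOD2, which hydroxylates lysines in collagen, was 5.04 higher in PAR than in TKO, 2.39 in WT than in TKO and 2.43 in WT than in CDM, from a dim level (2.93 in TKO). STC2 was 2.89, 2.25 and 2.43 higher and VLDLR 2.42, 2.36 and 2.49, in the same order. ADM, the vessel-active peptide adrenomedullin and also a HIF target, was lower by -1.78, -4.32 and -4.93, so HIF targets did not share a direction. Of 12 genes that regulate HIF, 0 were higher and 1 lower in PAR against TKO (HIF1AN, the asparagine hydroxylase that restrains HIF, at -0.55), and 1 higher and 3 lower in WT against TKO, where SIAH1, a ubiquitin ligase that acts on the EGLN sensors, was 0.90 higher and RBX1, a part of the VHL ligase, was -0.72.

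Beside glycolysis, the other fuel pathways were also read. Of 16 other genes of glucose handling, 5 were higher and 0 lower in PAR against TKO and 4 and 3 in WT against TKO. PDK3, a pyruvate dehydrogenase kinase, was higher by 1.62 in PAR and 1.89 in WT than in TKO and by 1.22 in WT than in CDM. TIGAR, which lowers fructose bisphosphate, was lower by -0.91 in WT than in TKO and by -0.97 in WT than in CDM. Of 10 genes of the pentose phosphate pathway and gluconeogenesis, 0 passed in PAR against TKO, and in WT against TKO 1 was higher, PCK2 at 1.67, and 2 lower, PGD at -0.83 and PC at -0.80. The respiratory chain list fell alongside the enzymes in WT: 10 of 24 subunits of complexes I and IV were lower and 1 higher than in TKO, beside 19.3% of all genes lower, led by NDUFB10 (-0.99), NDUFV1 (-0.97) and NDUFV2 (-0.81). In the citric acid cycle 2 of 16 were higher and 6 lower, with IDH3G at -1.05 and IDH2 at -0.58. In PAR against TKO the same 2 lists had 1 higher and 1 lower and 1 higher and 3 lower, IDH2 being -0.96. Of 12 genes of collagen hydroxylation and folding, 3 were higher and 1 lower in PAR against TKO, with SERPINH1, the collagen chaperone, 1.24 higher, and 2 higher and 3 lower in WT against TKO, with PLOD1 at -1.22. Of 13 KDM demethylases other than KDM3A, 2 were higher and 2 lower in PAR against TKO (KDM5B 1.42) and 3 and 1 in WT against TKO.

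For members with several probe sets, the sets were set against each other. Of the 17 members called in WT against TKO, 12 had other probe sets and 6 of these had another set called in the same direction. The count was 3 of 5 in PAR against TKO, 6 of 11 in WT+MMSET1 against CDM+MMSET1 and 0 of 4 in WT against CDM. An opposite call was found once, for CA12 in 526-1240 against TKO.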

How the data were processed

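The deposited table held 54613 probe sets on 30 arrays, and 0 of its columns belonged to other series. The design text states that RMA was applied by the authors, and the values are on the log2 scale. Neither its version nor the chip definition is named. Probe sets with several symbols (1801) or none (11721) in the platform annotation were left out. Of the brightest probe sets, those above the overall median on 3 or more arrays were tested (13137 genes). The model had 1 mean for each line over all 30 arrays (limma 3.58.1, R 4.3.3; residual degrees of freedom, 20). It gave 13 comparisons, with Benjamini-Hochberg adjustment over all genes tested. SE is the moderated standard error, and intervals are 95% intervals of limma. The code was tested on simulated data.

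Array values were given for members called in one direction in at least 2 of the 3 comparisons without shared arrays, and for the 5 largest called differences in each comparison among PAR, TKO and WT; those of ALDOA and P4HA1 were added after their values were seen. From each further list at most 4 called genes per comparison were named. Members and lists were chosen with earlier results of these data known.

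Equal replicate numbers were taken to pair arrays where all 3 residual correlations exceeded 0.1: PAR against TKO (0.115 to 0.445), CDM against TKO, MMSET1 against TKO and 526-1365 against WT. The blocked fits used the compared lines alone. No 2 arrays were duplicates. The settings tried are given in the closing section.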

Additional observations from a re-analysis of the deposited data

Results flagged for a closer look

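For 3 members the difference of PAR from TKO was not the same as that of WT from CDM, by a test of the difference of the 2 differences in the same limma fit, a contrast added after the data were seen. It passed for 3 of 34 members tested, beside 6.25% of all genes. P4HA2 differed by 1.950 (SE 0.350, adjusted p = 9.07e-04), with 2.73 in PAR against TKO and 0.78 in WT against CDM, but TKO, WT and CDM were all dim for P4HA2 and it passed the filter through other lines, so these are differences of array values and not measured changes of RNA. ENO2 differed by 1.105 (SE 0.208, adjusted p = 0.00142), being 0.57 higher in PAR than in TKO and -0.53 in WT against CDM. PFKM differed by 1.145 (SE 0.281, adjusted p = 0.0137), with 0.63 and -0.51, the second of which did not pass on its own. For EPAS1 the difference was 0.86 with an adjusted p of 0.0782.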

How the results depend on the processing

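No call of a member reversed under any setting tried. Of 118 member calls, 114 were kept with arrays centred on their median, 102 without the filter on low values, 100 with adjustment over all probe sets, 93 with only the compared lines, 97 with the replicate block added to that and 86 of 107 with probe sets averaged; over all fits that left out 1 array, 604 of 815 were kept. With 3 arrays per line and dim P4HA2, EPAS1 and EGLN3, small differences are limited by signal over background, and detection calls were not used here. The cause of the changes below was not tested.

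With probe sets averaged, 7 members passed in MMSET1 against TKO and 2 in H762Y against WT. Here and below, where no count of genes stands beside that of the members, the share of all genes is not given. Fitting only the compared lines, which leaves fewer arrays for the spread, gave 5 members in PAR against TKO, 11 members and 1926 genes in WT against PAR, 14 and 3410 in CDM against TKO, 1 and 295 in H762Y against TKO, 10 members in MMSET1 against TKO, 11 members in WT against CDM, 2 and 303 in H762Y against WT, and 23 genes in 526-1365 against WT. With the replicate block added, the counts were 16 members and 4092 genes in CDM against TKO, 11 and 3333 in MMSET1 against TKO, 0 and 0 in H762Y against TKO, 10 members in WT against CDM, 2 and 429 in H762Y against WT and 1 member in 526-1365 against WT. Equal numbers did not pair the arrays in H762Y against TKO, WT against CDM and H762Y against WT.

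Leaving out 1 array at a time, members passing ranged from 5 to 9 in PAR against TKO, 12 to 18 in WT against TKO, 10 to 20 in WT against PAR, 3 to 7 in CDM against TKO, 2 to 7 in H762Y against TKO and in MMSET1 against TKO, 10 to 21 in 526-1240 against TKO, 11 to 22 in 526-1365 against TKO, 1 to 10 in WT against CDM, 7 to 17 in WT+MMSET1 against CDM+MMSET1, 1 to 18 in H762Y against WT and 0 to 2 in 526-1365 against WT. Genes passing ranged from 2283 to 3512, 4153 to 6002, 2849 to 4783, 1438 to 2877, 1303 to 2287 in H762Y and 1434 to 2767 in MMSET1, 3828 to 5713, 3787 to 5599, 1546 to 4141, 2526 to 4934, 712 to 5147 and 110 to 304, in the same order, and from 0 to 1 in the test of activity by MMSET I.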
